A study of Homo sapiens with 5 samples.

Results

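The 10 genes described here cover the serine synthesis route and the ATF4 stress response: PHGDH, PSAT1, PSPH, SHMT1, SHMT2, ASNS, ATF4, DDIT3, CHAC1 and TRIB3. They were taken by name, and the reads of every transcript that the GENCODE v44 annotation (GRCh38) gives to each gene were summed, which used 126 of 227751 human transcripts and 10 of 61220 genes. All 10 had enough reads to be tested. The RNA came from NCI-H1975 and HCC827, established human cell lines from lung adenocarcinoma, which were cultured apart in RPMI medium with fetal calf serum; no drug is named in the labels. NCI-H1975 RNA was labelled as spiked with mix A of the synthetic sequin transcripts, and HCC827 RNA with mix B. Polyadenylated RNA of each line was pooled at HCC827 mass shares of 0, 25, 50, 75 and 100%, and 1 library was made of each pool. A library is called by its NCI-H1975 and HCC827 percentages, so 100:0 is pure NCI-H1975 and 0:100 pure HCC827. Each line contributed 1 RNA preparation, so the comparison is between these preparations and does not cover variation between cultures. Fewer cells expressing a gene and less RNA per cell cannot be told apart in such bulk RNA.

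Serine is made from the glycolytic intermediate 3-phosphoglycerate by PHGDH, PSAT1 and PSPH acting in turn, and the SHMT enzymes then move a carbon from serine to folate, leaving glycine. ATF4 is a transcription factor whose translation rises when kinases phosphorylate the initiation factor eIF2, as happens when amino acids run short or proteins misfold in the endoplasmic reticulum. Among its known targets are the serine enzymes, the asparagine synthetase ASNS, the transcription factor DDIT3 (also called CHOP), the glutathione-degrading enzyme CHAC1 and the pseudokinase TRIB3.

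ATF4 is known to bind, with a C/EBP partner, a composite element whose core can be written TGATGNAA. The element was looked for on both strands of RefSeq promoter windows (GRCh38.p14) that run from 250 bases before to 50 bases after a gene's start. Of the members, 8 had a window (PSPH and SHMT2 had none), and 2 of the 8, ASNS and CHAC1, held the core, against 4.46% of 27305 genes. The list of known ATF4 targets described further on had 35 genes with a window, of which 14 held it. Windows of 30 bases on the gene's strand are shown for both members, with 3 list genes that rose along the series and 1 that fell. Those 4 were chosen after their values were seen. Capitals mark the core or its reverse complement.
ASNS (chr7:97872458-97872487, minus strand, core 68 bases before the start): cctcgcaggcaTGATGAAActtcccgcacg
CHAC1 (chr15:40953251-40953280, plus strand, core 209 bases before the start): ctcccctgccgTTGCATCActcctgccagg
AARS1 (chr16:70289675-70289704, minus strand, rose): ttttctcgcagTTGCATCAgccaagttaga
MARS1 (chr12:57488053-57488082, plus strand, rose): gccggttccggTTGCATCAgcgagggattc
SLC1A5 (chr19:46784893-46784922, minus strand, rose): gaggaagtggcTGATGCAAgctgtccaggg
GARS1 (chr7:30594834-30594863, plus strand, fell): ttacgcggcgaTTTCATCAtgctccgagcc
Of the 13 tested list genes with the core, 6 rose and 2 fell, against 23.5% rising and 22.3% falling over all genes. These directions are relative to the scaling described below. A match describes the letters only, and a window without one says nothing about binding elsewhere.

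Library totals ran from 2932250 to 4058751 reads and did not follow the mixing ratio. Epithelial markers were present in every library: EPCAM had 998 to 1607 reads and KRT18 3121 to 11416. PTPRC of leukocytes and DCN of fibroblasts had 0 reads, and PECAM1 of endothelium had 1 to 3. The collagen genes COL1A1 and COL1A2, typical of fibroblasts, were present and fell along the series, COL1A1 with 532, 508, 351, 163 and 19 reads and COL1A2 with 96, 91, 56, 13 and 0. Their part in the results was not tested. Sequin reads numbered 5475, 4678, 2830, 1269 and 0 from 100:0 to 0:100, so the library labelled as HCC827 with sequin mix B had 0. They fell as the HCC827 share rose, in the mixed libraries too. Results are also given without the 0:100 library, which leaves the mixed libraries as they are. The mean length of the assigned transcripts went from 2579 bases at 100:0 to 2180 at 0:100, and the mitochondrial share of reads was 5.64, 7.05, 7.99, 8.39 and 8.85% in series order. An alternative fit removed the length trend, and its results are given below. The part of the mitochondrial share in the results was not tested.

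Levels are CPM, a gene's reads relative to the library's total after TMM scaling, which assumes that most genes do not differ. Genes were tested with edgeR's quasi-likelihood test for a slope of log2 level along the HCC827 mass fraction, with p-values adjusted over all 13492 genes tested and a threshold of 0.05. A slope of 1 is a doubling from 100:0 to 0:100. Scaling mattered: under TMM the median gene had a slope of -0.035, and under plain library totals it had one of -0.44, so every direction below is relative to TMM, and the value under totals is given where it changes the call.

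PHGDH, SHMT2, ATF4 and TRIB3 rose with the HCC827 fraction, and none of the 10 members fell past the threshold. The other 6 did not pass, among them PSAT1 and PSPH, which follow PHGDH in the same route, and the ATF4 target DDIT3. The 4 of 10 called compare with 45.8% of all genes, and the 4 rising with 23.5% of all genes. The share called is thus near the background. At an unadjusted p under 0.05, DDIT3 was the only member with a negative slope. The median slope of the members was 0.41. The CPM of 5 members ran in order over the 5 libraries, against 28.5% of all genes, and for 7 members all inner libraries lay between the ends, against 47% of all genes. The pure libraries were at least 1.5-fold apart for 3 members, against 56.8% of all genes. The 4 calls were also made in each fit that left out 1 library, the 0:100 library included. Under library totals PHGDH and ATF4 still rose, SHMT2 and TRIB3 did not pass, and DDIT3 and SHMT1 fell, so 2 rose and 2 fell. All genes called went from 51.3% rising under TMM to 26.3% under totals.

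**Figure D1:**
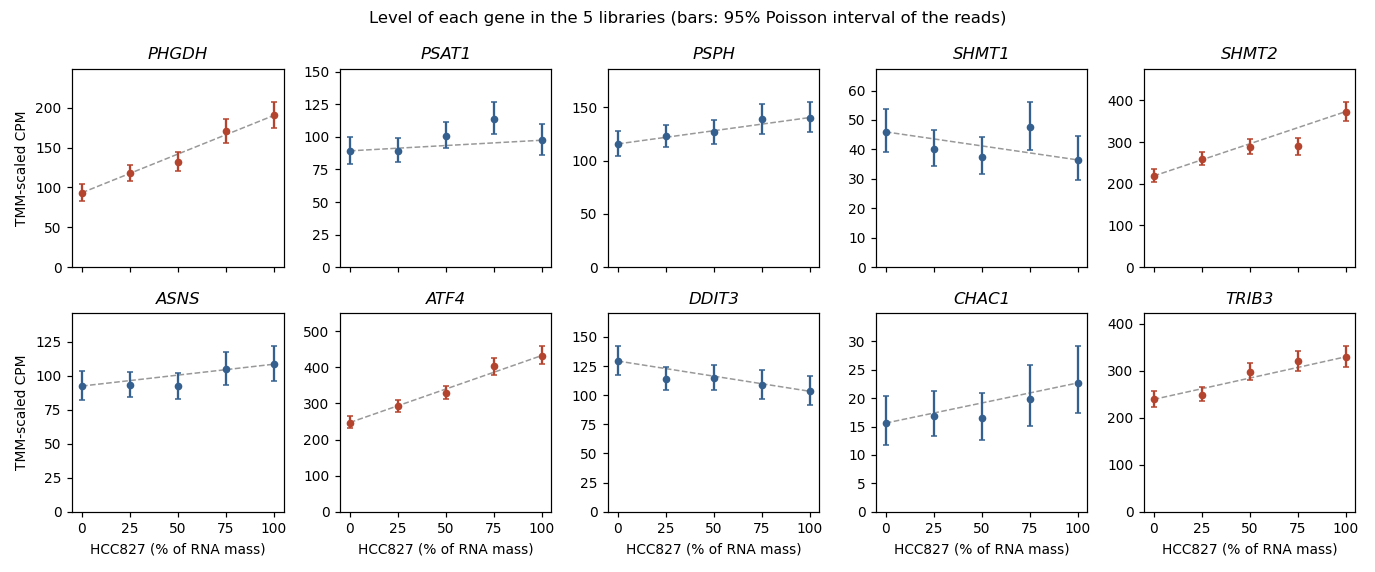
TMM-scaled CPM of each member (vertical axis, from 0) against the HCC827 share of RNA mass (horizontal axis, %), with 95% Poisson intervals of the reads; red marks the 4 genes past the threshold, blue the other 6, and the dashed line joins the pure libraries. PHGDH climbs from 93.4 to 190 CPM close to the line, while PSAT1 and SHMT1 have their highest value in the 25:75 library.

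PHGDH (ENSG00000092621.13, chromosome 1, 119648411 to 119744218, plus strand) is the dehydrogenase that commits 3-phosphoglycerate to serine. Its level was 93.4 CPM at 100:0, 118 at 75:25, 132 at 50:50, 170 at 25:75 and 190 at 0:100, from 317, 509, 515, 487 and 512 reads. The values ran in order, and the counting intervals of the pure libraries did not overlap (83.4 to 104 and 174 to 208 CPM). A slope of 1.03 ± 0.12 (SE) was fitted (adjusted p = 3.15e-05, edgeR quasi-likelihood test), and 14.5% of all genes had a higher one. Over the alternatives it ran from 0.62 to 1.10 and passed in all 15, with adjusted p from 2.48e-10 to 0.0362. From 100:0 to 0:100 its level was 2.04-fold higher (95% counting interval 1.77 to 2.35). It was the only member to reach 2-fold, which 34.6% of all genes did.

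PSAT1 (chromosome 9, 78297125 to 78330093, plus strand) is the aminotransferase of the next step. It had 89.3, 89.4, 101, 114 and 97.4 CPM along the series, on 303, 386, 393, 326 and 262 reads. The highest value stood in the 25:75 library and not at an end, and the pure libraries overlapped in their intervals. Its slope was 0.25 ± 0.15 (edgeR quasi-likelihood test, adjusted p = 0.183), and it turned to -0.16 under library totals. Over fits that left out 1 library it ran from 0.16 to 0.49, the highest without the 0:100 library (adjusted p = 0.0527, edgeR quasi-likelihood test). No direction can be given. PSPH (chromosome 7, 56011051 to 56051604, minus strand) is the phosphatase that releases serine. It had 116, 123, 127, 139 and 141 CPM, from 393, 530, 493, 397 and 378 reads. These values ran in order, but the slope of 0.29 ± 0.12 had an adjusted p of 0.0601 (edgeR quasi-likelihood test) and was -0.11 under library totals. PSPH lies 799423 bases beyond the end of EGFR, the receptor gene that went from 315 reads at 100:0 to 2582 at 0:100 with a slope of 2.96 ± 0.38.

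The balance within the route does not depend on scaling, because all genes of a library share its total. Per 100 reads of PHGDH there were 95.6 reads of PSAT1 at 100:0, then 75.8, 76.3, 66.9 and 51.2 at 0:100. The interval at 100:0 (81.7 to 112) lay above that at 0:100 (44.1 to 59.4). For PSPH the values were 124, 104, 95.7, 81.5 and 73.8 reads per 100 of PHGDH, in order. PHGDH therefore had the larger read share relative to both partners in the HCC827 library. These pairs were set side by side after the values were seen and carry no test.

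SHMT2 (chromosome 12, 57229573 to 57234935, plus strand) is the mitochondrial hydroxymethyltransferase. It had 219, 259, 289, 289 and 373 CPM, from 742, 1120, 1126, 828 and 1003 reads. The values ran in order with the 50:50 and 25:75 libraries level, and the slope was 0.68 ± 0.12 (edgeR quasi-likelihood test, adjusted p = 7.01e-04). It was 0.55 (adjusted p = 0.0188, same test) without the 0:100 library and 0.27 (adjusted p = 0.0768, same test) under library totals. SHMT1 (chromosome 17, 18327860 to 18363563, minus strand), the cytosolic enzyme, had 46.0, 40.1, 37.5, 47.5 and 36.4 CPM on 156, 173, 146, 136 and 98 reads. Its values had no order, and the slope of -0.16 ± 0.21 did not pass (edgeR quasi-likelihood test, adjusted p = 0.557). Under library totals it was -0.56 and passed (adjusted p = 0.0343, same test). SHMT1 overlaps SMCR8 on the opposite strand by 197 exonic bases, SMCR8 had 301 reads against 709 of SHMT1, and whether counting used the strand is not given in the sources used here. Reads of SHMT1 per 100 of SHMT2 were 21.0 at 100:0 (95% interval 17.7 to 25.0), then 15.4, 13.0 and 16.4, and 9.77 at 0:100 (7.94 to 12.0). The pure libraries differed in this ratio beyond counting error, and the 25:75 library broke the order.

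ATF4 (ENSG00000128272.18, chromosome 22, 39519695 to 39522683, plus strand) had 247, 292, 330, 403 and 433 CPM, from 839, 1259, 1284, 1153 and 1164 reads. The libraries were in order and the pure libraries did not overlap in their intervals (231 to 264 and 408 to 458 CPM). The slope was 0.83 ± 0.12 (edgeR quasi-likelihood test, adjusted p = 9.28e-05). It passed in all 15 alternatives, from 0.43 to 0.92, with adjusted p from 9.13e-11 to 0.0424. Its processed pseudogenes ATF4P3 and ATF4P4 had 4 reads each, too few to bear on it. The files held 3 of the 11 ATF4 transcripts in GENCODE v44. ATF4 is controlled largely at translation, which messenger RNA counts do not show.

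DDIT3 (chromosome 12, 57516588 to 57521737, minus strand) encodes a transcription factor that ATF4 induces under prolonged stress. It had 129, 114, 115, 109 and 103 CPM, from 439, 492, 447, 311 and 278 reads. The 100:0 library was highest, and its interval (118 to 142) lay above that of the 0:100 library (91.6 to 116). The slope was -0.29 ± 0.12 (edgeR quasi-likelihood test, adjusted p = 0.0768). It passed in 3 of 15 alternatives: -0.69 under library totals, -0.34 with at least 10 reads in every library and -0.62 with the length trend removed. Without the 100:0 library it was -0.19 (adjusted p = 0.436, edgeR quasi-likelihood test). DDIT3 transcripts were the shortest of the members, at a read-weighted mean of 945 bases. DDIT3 also overlaps MARS1 and MBD6 on the opposite strand by 355 and 58 exonic bases. MARS1, a transfer RNA synthetase and itself a listed ATF4 target, had 2222 reads against 1967 of DDIT3 and rose with a slope of 0.88 ± 0.14 (edgeR quasi-likelihood test, adjusted p = 3.01e-04). If reads were assigned without strand, part of either could belong to the other, and this was not tested.

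DDIT3 and ATF4 thus ran apart in the same libraries. Per 100 ATF4 reads there were 52.3 DDIT3 reads at 100:0 (95% interval 46.6 to 58.7), then 39.1, 34.8 and 27.0, and 23.9 at 0:100 (21.0 to 27.2). The ratio was in order over all 5 libraries and free of scaling. The targets below differed less: ASNS went from 37.4 to 25.1 reads per 100 of ATF4 and TRIB3 from 96.7 to 76.1. CHAC1 went from 6.32 (4.79 to 8.33) to 5.24 (4.05 to 6.77), with overlapping intervals.

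**Figure D2:**
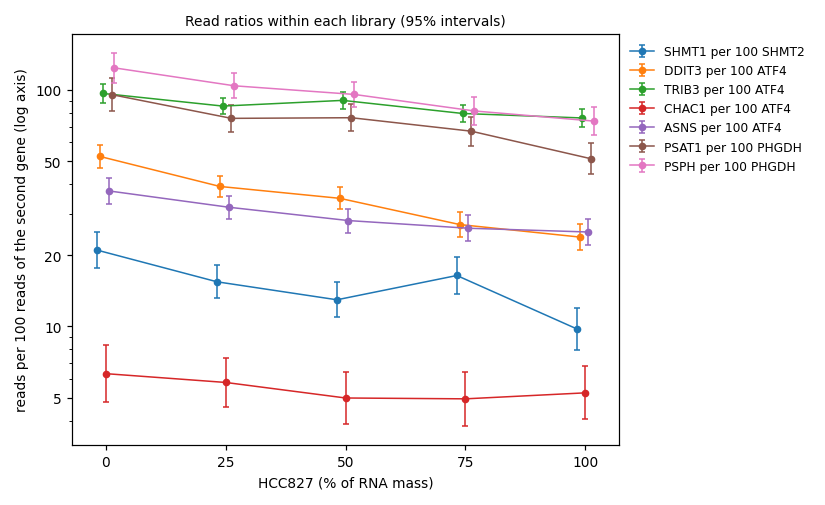
Reads of 1 gene per 100 reads of another in the same library (vertical log axis) against the HCC827 share of RNA mass (horizontal axis, %), with 95% intervals from the counts and points set slightly apart sideways. DDIT3 per 100 ATF4 drops from 52.3 to 23.9 in order, while the CHAC1 intervals overlap throughout.

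TRIB3 (chromosome 20, 362835 to 397559, plus strand) binds ATF4 and DDIT3 and dampens their activity. It had 239, 249, 298, 321 and 329 CPM, from 811, 1076, 1160, 917 and 886 reads. The 2 libraries richest in NCI-H1975 were low and the other 3 high. The slope of 0.52 ± 0.12 passed (edgeR quasi-likelihood test, adjusted p = 0.00340), but it was 0.11 with an adjusted p of 0.458 under library totals (same test). CHAC1 (chromosome 15, 40952962 to 40956512, plus strand) had the fewest reads of the members, 53, 73, 64, 57 and 61, or 15.6, 16.9, 16.4, 19.9 and 22.7 CPM. Its intervals overlapped in all libraries, and the slope of 0.53 ± 0.25 did not pass (edgeR quasi-likelihood test, adjusted p = 0.106). Its slope was close to that of TRIB3, with an SE of 0.25 against 0.12.

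ASNS (chromosome 7, 97851677 to 97872542, minus strand) makes asparagine from aspartate and glutamine. It had 92.5, 93.1, 92.4, 105 and 109 CPM, from 314, 402, 360, 300 and 292 reads. The intervals of all 5 libraries overlapped, and the slope was 0.25 ± 0.13 (edgeR quasi-likelihood test, adjusted p = 0.128). The noncoding gene ENSG00000284707 lies on the same strand and shares 2415 exonic bases with ASNS. It had 1084 reads against 1668 of ASNS, so the division between them is uncertain. Their sum gave 159, 149, 153, 180 and 169 CPM and a slope of 0.18 (same test, adjusted p = 0.262), an alternative added after the data were seen.

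**Figure D3:**
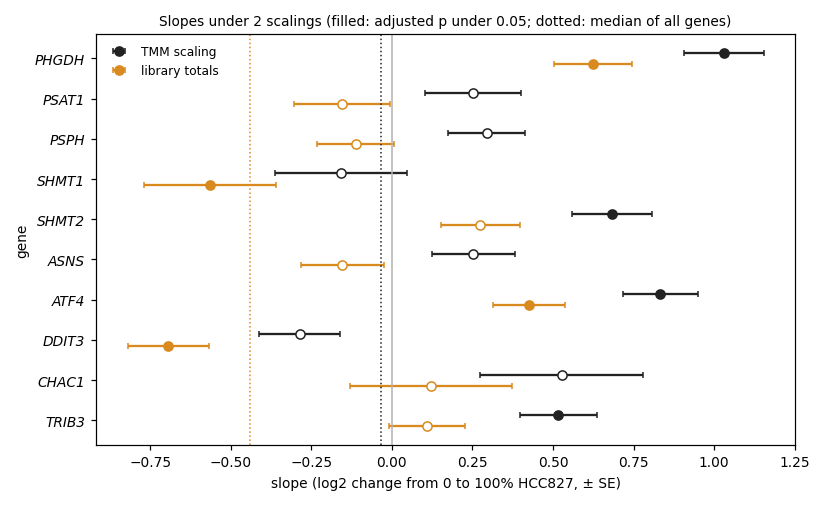
Slope of each member (horizontal axis, log2 change from 0 to 100% HCC827, with SE) under TMM scaling (black) and library totals (orange); filled points had an adjusted p under 0.05, and dotted lines mark the median of all genes in each. PHGDH and ATF4 are filled to the right of 0 in both, and DDIT3 and SHMT1 are filled to the left under library totals only.

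The transcripts of the members were examined next, since long reads are assigned to transcripts. Of 40 member transcripts with enough reads, 18 rose and 0 fell in the edgeR quasi-likelihood test. Of all transcripts, 33.6% were called, 17.5% rising and 16.1% falling. Most of the 18 belong to PHGDH, SHMT2, ATF4 and TRIB3, so this count is not separate from the gene calls. At an unadjusted p under 0.05 1 member transcript, PSPH-211, had a negative slope (unadjusted p = 0.0170, adjusted p = 0.0505, same edgeR test). Under library totals 4 rose and 5 fell. All 3 ATF4 transcripts passed, with slopes of 0.65, 0.88 and 0.75 for ATF4-201, ATF4-202 and ATF4-203, and 6 of 7 tested PHGDH transcripts did, with slopes from 0.86 to 1.17. ASNS-203 rose (slope 0.64, edgeR quasi-likelihood test, adjusted p = 0.0287), while ASNS-201 and ASNS-202 had slopes of -0.03 and 0.07. In DDIT3, 4 coding transcripts each held 24.0 to 24.8% of reads. Such even shares among similar transcripts limit what transcript values can show.

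Isoform usage was tested in 7 members with at least 2 transcripts of enough reads. At an adjusted p under 0.05, 0 passed (edgeR diffSpliceDGE, Simes), against 0.402% of all genes, and 1, PSPH, had an unadjusted p under 0.05 (adjusted p = 0.417, same edgeR test), against 3.86% of all genes. The gene-level F test of the same fit called PSPH (adjusted p = 0.0416), and 66 of 7455 genes in all. PSPH-210, annotated for nonsense-mediated decay, took 28.0% of PSPH reads at 100:0, then 27.4, 26.4 and 22.2%, and 18.3% at 0:100. PSPH-211, which has no defined coding sequence, went from 3.56 to 0.265%, with 14 reads at 100:0 and 1 at 0:100. The coding transcript PSPH-201 held 48.6% at 100:0 and 58.2% at 0:100. Coding transcripts together took 68.4% at 100:0 (95% Wilson interval 63.7 to 72.8) and 81.5% at 0:100 (77.3 to 85.1), and these intervals did not overlap. PSPH-210 and PSPH-201 share all 5 coding segments. PSPH-210 lacks 2 noncoding exons of PSPH-201 and has an added intron after the stop codon (chromosome 7, 56011234 to 56011543). Without the 0:100 library the usage test of PSPH had an unadjusted p of 0.225.

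No other tested member had an unadjusted p under 0.05 for isoform usage (edgeR diffSpliceDGE, Simes). PSAT1, CHAC1 and TRIB3 were not tested for it. In SHMT2 most reads sat on transcripts annotated for decay, 59.4% at 100:0 and 57.4% at 0:100, against 32.2 and 32.3% on coding ones. In PHGDH the decay class held 28.4 and 30.1%. In SHMT1 retained-intron transcripts held 36.5 and 33.7%. These classes depend on how reads were divided between similar transcripts.

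**Figure D4:**
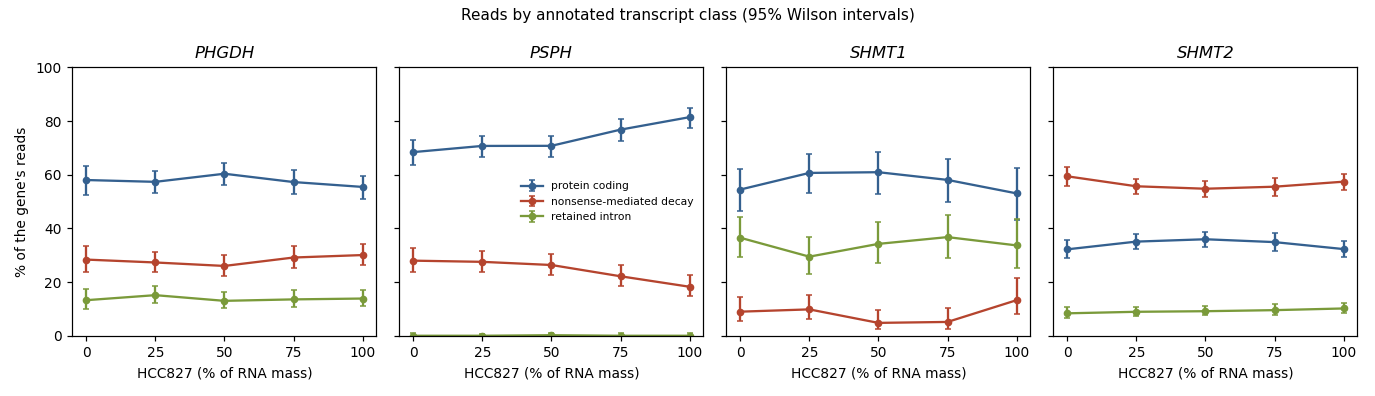
Share of a gene's reads (vertical axis, %) on transcripts annotated as protein coding, for nonsense-mediated decay or with a retained intron, against the HCC827 share of RNA mass (horizontal axis, %), with 95% Wilson intervals. The decay class of PSPH goes from 28.0 to 18.3%, and in SHMT2 it lies above the coding class in all 5 libraries.

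The rest of the pathway was read from 4 lists. Of 41 tested genes known as ATF4 targets, 20 rose, 9 fell and 12 did not pass, with a median slope of 0.52 against -0.035 for all genes. Of all genes, 23.5% rose and 22.3% fell, so the share of targets that fell was near the background. Under library totals 15 rose and 17 fell, so the split depends on scaling. Of all genes, 51% were called under totals, 26.3% of them rising. Without the 0:100 library 19 rose and 7 fell, and 30.5% of all genes were called, 55.4% of them rising. The steepest rises were those of CTH (2.12 ± 0.47), CBS (1.64 ± 0.20) and DDIT4 (1.52 ± 0.12). CBS and CTH turn homocysteine and serine into cysteine, and DDIT4 is an inhibitor of the growth kinase mTORC1. CTH had 10 reads at 100:0 and 93 at 0:100, and its slope was 1.17 without the 100:0 library. DDIT4 had 528 reads at 100:0 and 1230 at 0:100. ALDH1L2, a mitochondrial folate enzyme, fell from 52 to 3 reads (-2.77 ± 0.49). SLC7A11, the cystine importer, fell from 174 to 57 reads (-1.29 ± 0.20), and NUPR1, a stress-induced chromatin protein, from 404 to 135 (-1.14 ± 0.15).

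Of 23 tested partners of serine in folate and one-carbon metabolism, 5 rose, 6 fell and 12 did not pass, with a median slope of -0.25. Under library totals 3 rose and 12 fell, and 51% of all genes were called, 26.3% of them rising. The share called under TMM, 11 of 23, was near the 45.8% of all genes. CTH, CBS and ALDH1L2 are also in this list. FPGS, which adds glutamates to folate, rose from 161 to 250 reads (0.85 ± 0.16). DLD, a subunit of the glycine cleavage system, fell from 310 to 88 (-1.41 ± 0.20). FTCD, a folate enzyme of histidine breakdown, fell from 39 reads to 0 (edgeR quasi-likelihood test, adjusted p = 0.0100). It did not pass with DESeq2's Wald test, in a 2 against 2 comparison of libraries or without the 0:100 library. GLDC, AMT, SDS and GNMT had too few reads to test.

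Of 20 genes listed for eIF2 and ATF4 signalling, 6 rose and 6 fell, against 23.5% rising and 22.3% falling over all genes. The other 8 did not pass. Under library totals 3 of the 20 rose and 10 fell, and without the 0:100 library 4 rose and 3 fell. Those settings called 51% and 30.5% of all genes, with 26.3% and 55.4% of the called genes rising. EIF2AK2 and EIF2AK4, kinases that phosphorylate eIF2 in response to double-stranded RNA and to amino acid shortage, fell (-0.89 ± 0.13 and -0.75 ± 0.18), as did IMPACT, an inhibitor of EIF2AK4 (-0.69 ± 0.25). IMPACT lost its call without any one of the 100:0, 75:25 or 0:100 libraries. DELE1, which carries mitochondrial stress to the kinase EIF2AK1, rose from 50 to 115 reads (1.44 ± 0.25). EIF2B3, a subunit of the exchange factor that eIF2 phosphorylation blocks, rose from 56 to 114 (1.35 ± 0.22). PPP1R15A, which directs a phosphatase to eIF2, rose from 151 to 232 (0.82 ± 0.16).

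Genes of the other branches of the unfolded protein response, mainly chaperones and degradation factors of the endoplasmic reticulum, moved one way. Of 18 tested with edgeR, 0 rose, 12 fell and 6 did not pass, with a median slope of -0.75, and all 18 slopes were below 0. Over all genes 22.3% fell. Under library totals all 18 fell, and without the 0:100 library 11 fell and 0 rose. All genes were called at 51% and 30.5% in those settings, with 26.3% and 55.4% of the called genes rising. The steepest were SEL1L, a scaffold of the degradation machinery (363 to 84 reads, -1.58 ± 0.17), EDEM1, which sorts misfolded glycoproteins (78 to 25 reads, -1.31 ± 0.29), and DNAJC3, a cochaperone that also inhibits eIF2 kinases (150 to 57 reads, -1.19 ± 0.24). ATF4 thus rose along a series in which no tested gene of this list did.

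**Figure D5:**
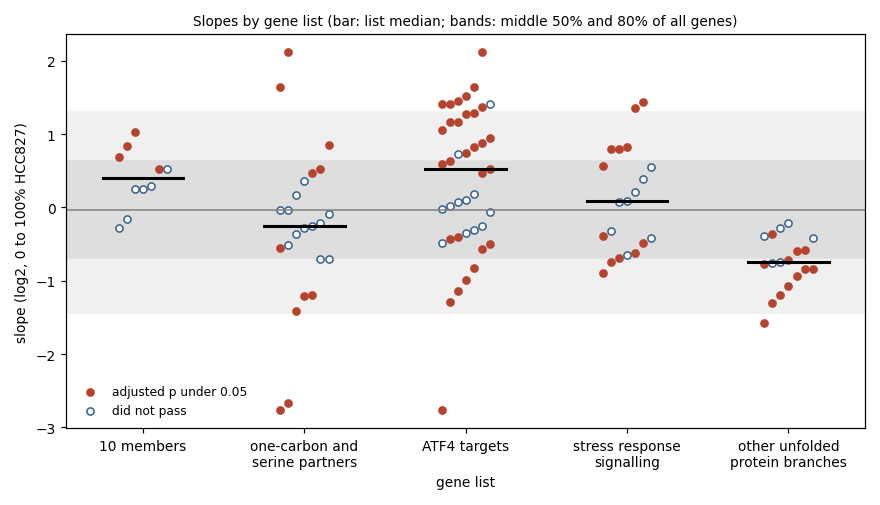
Slopes under TMM scaling (vertical axis, log2 change from 0 to 100% HCC827) of the 10 members and of the tested genes of 4 lists (horizontal axis); filled points had an adjusted p under 0.05, bars are list medians, and grey bands hold the middle 50% and 80% of all genes. The median is 0.52 for ATF4 targets and -0.75 for the other unfolded protein branches, where no point is above 0.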

How the data were processed

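Nanopore PromethION cDNA libraries, amplified by PCR per the labels' protocols, were measured in 5 mixtures. The authors deposited estimated counts of reads per transcript, unscaled. The submitters' processing notes name minimap2 2.24, Salmon 1.9.0 and GRCh38, without role, and the annotation release is not given in the sources used here. In the files, 2 values were not whole and were rounded to whole reads, 161 repeated identifiers were summed, and 98.6% of human reads matched GENCODE v44. Library sizes were the totals over all transcripts (2932250 to 4058751 reads). Features with at least 10 reads in at least 2 libraries were tested with edgeR 4.0.16 (R 4.3.3), TMM factors 0.870 to 1.16, a covariate of HCC827 mass fraction and Benjamini-Hochberg adjustment. SE is slope over the square root of F. The tests were tried on simulated data. For the slope tests few genes changed there, as many up as down, so the simulation could not check the scaling. Alternatives were DESeq2 1.42.0, limma-voom (limma 3.58.1), other scalings and filters, the HCC827 share estimated from reads, a 2 against 2 comparison, removal of the length trend, and leaving out each library. Pseudogene reads added to slopes and ENSG00000284707 added to ASNS were chosen after seeing the data.

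Named genes were the 10 members, up to 3 called genes per direction and list with the steepest slope, and overlapping genes and pseudogenes. Others were named after their values were seen. The members and lists were chosen with earlier results of these data known. Of the 42 ATF4 targets, 5 are in another list. Intervals cover counting error only, since no molecular identifiers are given, and p-values cover scatter between libraries of the same RNA preparations.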

Additional observations from a re-analysis of the deposited data

How the results depend on the processing

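Scaling by library totals moved most values: PSAT1, PSPH and ASNS turned to slopes of -0.16, -0.11 and -0.15, the log2 ratio of PSPH between the pure libraries turned to -0.13, and 9 member transcripts passed in place of 18. The median slope of all genes moved from -0.035 to -0.44. The slope of SHMT1, not called, ran from -0.32 to 0.010 over fits that left out 1 library, at 0.010 without the 100:0 and 0.0052 without the 0:100 library. The 2 against 2 comparison, on 4 libraries, called 17.3% of all genes and 2 of 10 members, PHGDH and ATF4. In the lists it called 5 of 23 one-carbon genes, 18 of 41 ATF4 targets and 3 of 20 signalling genes. Of the other unfolded protein list it called 7 of 18. FPGS, CTH, EIF2AK2, PPP1R15A and IMPACT did not pass in it, nor IMPACT with DESeq2's Wald test. Without a read filter, which tested more transcripts, 11 member transcripts passed. The F test for isoform usage called 1 member, PSPH, and 66 of 7455 genes in all, against 30 with Simes. The cause was not tested. Leaving out the libraries singly gave 4 members throughout, 8 to 11 one-carbon genes and 25 to 29 ATF4 targets. It gave 7 to 12 signalling genes (7 without the 0:100 library) and 11 to 12 of the unfolded protein list. Those gene fits called 30.5 to 44.2% of all genes, least without the 0:100 library. Member transcripts called were 9 to 16 (9 without the 100:0 or the 0:100 library), and members called for isoform usage stayed at 0. With the length trend removed 4 members rose and 1, DDIT3, fell, and 43.8% of all genes were called. The slopes of PHGDH, SHMT2, ATF4 and TRIB3 were then 0.86, 0.56, 0.63 and 0.38. PSPH passed under DESeq2 size factors (slope 0.31, edgeR quasi-likelihood test, adjusted p = 0.0471). Of the member slopes refitted in alternatives, 137 kept direction and call, 5 changed direction, 5 gained a call and 4 lost it. Of the slopes of named list genes refitted in this way, 238 kept both and 12 lost the call. No paired analysis was possible because each mixing ratio had 1 library. CHAC1 (308 reads in all) and SHMT1 (709) had the fewest reads and the largest SE of the members.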

Other observations

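A gene's share of the library total in a mixture would lie on the line between the pure libraries, if both RNAs were read alike. The line used here was weighted by the labelled mass but drawn in CPM, after TMM scaling by a separate factor in each library. A mixture need not lie on that line even if both RNAs were read alike. The part of the scaling in the departures below was not tested. The HCC827 share estimated from the reads was 32.7, 55.4 and 78.2% in the 75:25, 50:50 and 25:75 libraries. For PHGDH these libraries stood at 1.00, 0.932 and 1.02 times the line, and for ATF4 at 0.993, 0.969 and 1.04. SHMT1 departed most, at 1.22 in the 25:75 library, where PSAT1 was at 1.19 and SHMT2 at 0.866, with 289 CPM (95% Poisson interval 270 to 310). CHAC1 was at 0.858 in the 50:50 library on 64 reads. These values were picked out after they were seen and carry no test.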
